A study of Mus musculus with 80 samples.

Results

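The genes described here are 10 transcription factors that mark or shape neurons of the striatum, namely Foxp1, Foxp2, Bcl11b, Meis2, Isl1, Ebf1, Sp9, Six3, Zfhx3 and Ikzf1. They were chosen by name, and all 10 were among the 25160 genes of the table of TPM (a transcript level scaled for gene length and for the total of each cell). Each of the 80 samples was the cDNA of 1 neuron, sorted by fluorescence from the dorsomedial striatum of adult mice that carried a Drd1a-TdTomato and a Drd2-EGFP reporter, both heterozygous. Both reporters are transgenes on bacterial artificial chromosomes, so that their fluorescence follows the promoters of the D1 and D2 dopamine receptor genes and not the receptors themselves. The Drd1 group held 40 cells, called D1 MSN (medium spiny neurons) below. The Drd2 group held 40 cells, of which 38 with at most 100 TPM of Chat are called D2 MSN, and 2 with more than 100 TPM of Chat are called Chat cells. Chat encodes the enzyme that makes acetylcholine and marks cholinergic interneurons.

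MSN are the projection neurons of the striatum. D1 MSN feed the direct pathway of the basal ganglia and D2 MSN the indirect pathway. Forkhead, zinc finger and homeodomain factors set up MSN as a class during development, and others are needed for only one subtype or for interneurons, and many of them stay on in the adult neuron. Foxp1, Foxp2, Bcl11b (also called Ctip2) and Meis2 are known as factors of MSN in general. Isl1 and Ebf1 are known from the development of direct pathway neurons, and Sp9 and Six3 from that of indirect pathway neurons. Isl1 is also needed for cholinergic interneurons.

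Promoter sequences from RefSeq (GRCm38.p6) were found for 9 of the 10 genes, Foxp2 being the one not matched. The 250 bases before the start site are printed for Isl1 and Ebf1, which were higher in D1 MSN, and for Sp9 and Six3, which were higher on average in D2 MSN, as examples of factors known from the development of either subtype. The windows lie at chr13:116309689-116309938 on the minus strand for Isl1, chr11:44617850-44618099 on the plus strand for Ebf1 (the first of its listed promoters), chr2:73271676-73271925 on the plus strand for Sp9 and chr17:85620584-85620833 on the plus strand for Six3. Capitals mark CCAAT or its reverse complement ATTGG, the CCAAT box.
Isl1: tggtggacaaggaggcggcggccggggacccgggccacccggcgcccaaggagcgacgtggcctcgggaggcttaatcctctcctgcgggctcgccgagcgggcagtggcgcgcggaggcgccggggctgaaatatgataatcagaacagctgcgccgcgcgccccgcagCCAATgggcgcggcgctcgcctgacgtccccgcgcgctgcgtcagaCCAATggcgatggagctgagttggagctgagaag
Ebf1: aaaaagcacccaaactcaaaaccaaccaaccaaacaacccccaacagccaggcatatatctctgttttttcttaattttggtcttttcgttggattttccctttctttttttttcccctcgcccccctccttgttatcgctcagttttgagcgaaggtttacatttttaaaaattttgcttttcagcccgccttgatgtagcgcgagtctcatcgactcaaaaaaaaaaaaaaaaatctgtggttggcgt
Sp9: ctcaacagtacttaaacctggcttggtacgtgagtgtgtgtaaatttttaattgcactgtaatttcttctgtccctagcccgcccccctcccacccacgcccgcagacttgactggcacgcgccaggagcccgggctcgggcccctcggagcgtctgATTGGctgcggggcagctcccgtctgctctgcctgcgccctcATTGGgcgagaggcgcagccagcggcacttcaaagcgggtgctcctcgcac
Six3: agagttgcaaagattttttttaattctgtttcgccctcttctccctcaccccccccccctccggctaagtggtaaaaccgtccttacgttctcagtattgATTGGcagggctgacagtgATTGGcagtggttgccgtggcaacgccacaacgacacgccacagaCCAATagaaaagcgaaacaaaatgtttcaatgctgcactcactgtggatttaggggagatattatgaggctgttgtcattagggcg

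The Isl1 window held 2 CCAAT boxes, that of Sp9 held 2, that of Six3 held 3 and that of Ebf1 held 0, both strands counted. Over all 13 listed windows of the 9 genes, 5 (38.5%) held a CCAAT box. Of 32851 mouse promoters of the same length, 33.8% held at least 1, 10.1% at least 2 and 2.79% at least 3. Base composition differed between the windows, with 71.2% G and C for Isl1, 62.4% for Sp9, 48.8% for Six3 and 40.0% for Ebf1, against a median of 52.4% over all promoters. Other letters searched on both strands were GGGCGG (in 32.7% of all promoters), TATAAA (12.4%), TGTTTAC (3.17%), TGACAG (15.9%) and TAATTA (4.84%). Among the 4 windows, GGGCGG was found only in Sp9 and TGACAG only in Six3, each 1 time, and neither overlapped a CCAAT box. Such matches describe letters and not binding.

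The study took its cells from several animals, but the labels tie no cell to one, so each group counts as 1 sample, no test was made between groups, and spreads below are between cells. D1 MSN had between 648 and 8657 genes above 1 TPM (median 5722), D2 MSN between 1215 and 7942 (median 4927.5), and the Chat cells 10912 and 10251. Read depth cannot be read from TPM, so a value of 0 means only that the gene is listed at 0. The labels were compared with marker genes. The summed level of 5 D1 MSN markers (Drd1, Pdyn, Tac1, Slc35d3, Sfxn1) had a median of 2564 TPM (D1 MSN) against 17.4 TPM (D2 MSN), and that of 4 D2 MSN markers (Drd2, Adora2a, Penk, Gpr6) 11.6 TPM and 10848 TPM. Some cells of the Drd1 group stood apart. The cell in well B02 of plate FACS086_4 had 648 genes and a sum of MSN markers of 6.07 TPM. On plate FACS051_5, the cell in well D04 had 12872 TPM of astrocyte markers, whereas the median D1 MSN had 1.07 TPM. The cell in well C06 of plate FACS051_5 had 297 TPM of Drd1 together with 3676 TPM of Penk, the enkephalin gene of D2 MSN. That in well A04 of the same plate had 8798 TPM of D1 but also 500 TPM of D2 MSN markers. In the Drd2 group the cell in well A12 of plate FACS086_9, with 1215 genes, had more of the D1 than of the D2 MSN markers, at 1218 and 527 TPM. The cell in well C05 of FACS086_4 had 7234 TPM of D2 but also 1083 TPM of D1 MSN markers. Without these 2 Drd2 cells the counts of log2 folds past 1 given below were the same, at 4 above and 1 below.

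Markers of other cell types were summed in every MSN. Other interneuron markers reached at most 2.51 TPM and cholinergic ones at most 15.7 TPM. Astrocyte markers had medians of 1.07 TPM (D1 MSN) and 0.260 TPM (D2 MSN), and their highest D2 MSN was at 45.5 TPM. For oligodendrocytes the medians were 2.86 and 2.96 TPM and the highest cells at 260 and 84.8 TPM, and for microglia the medians were 0.340 and 0 TPM and the highest cells at 10.8 and 20.8 TPM. The microglia sum held 2 of 5 markers and the endothelial sum 2 of 4, the others not being listed. Likewise, the other interneuron sum held 3 of 5 markers and the cortical sum 3 of 4. The oligodendrocyte and astrocyte sums held 4 of 5 each. Endothelial markers stood at medians of 31.97 and 30.96 TPM, with highest cells at 152 and 277 TPM. Pecam1 alone had medians of 30.7 and 30.8 TPM and was above 1 TPM in all 40 D1 and all 38 D2 MSN. The other endothelial marker, Flt1, had a median of 0 TPM in both and was above 1 TPM in 3 D1 and 3 D2 MSN. Markers of cortical excitatory neurons had medians of 0.567 and 0.196 TPM and highest cells at 147 and 17.02 TPM. The part of such RNA in the values below was not tested.

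**Figure D1:**
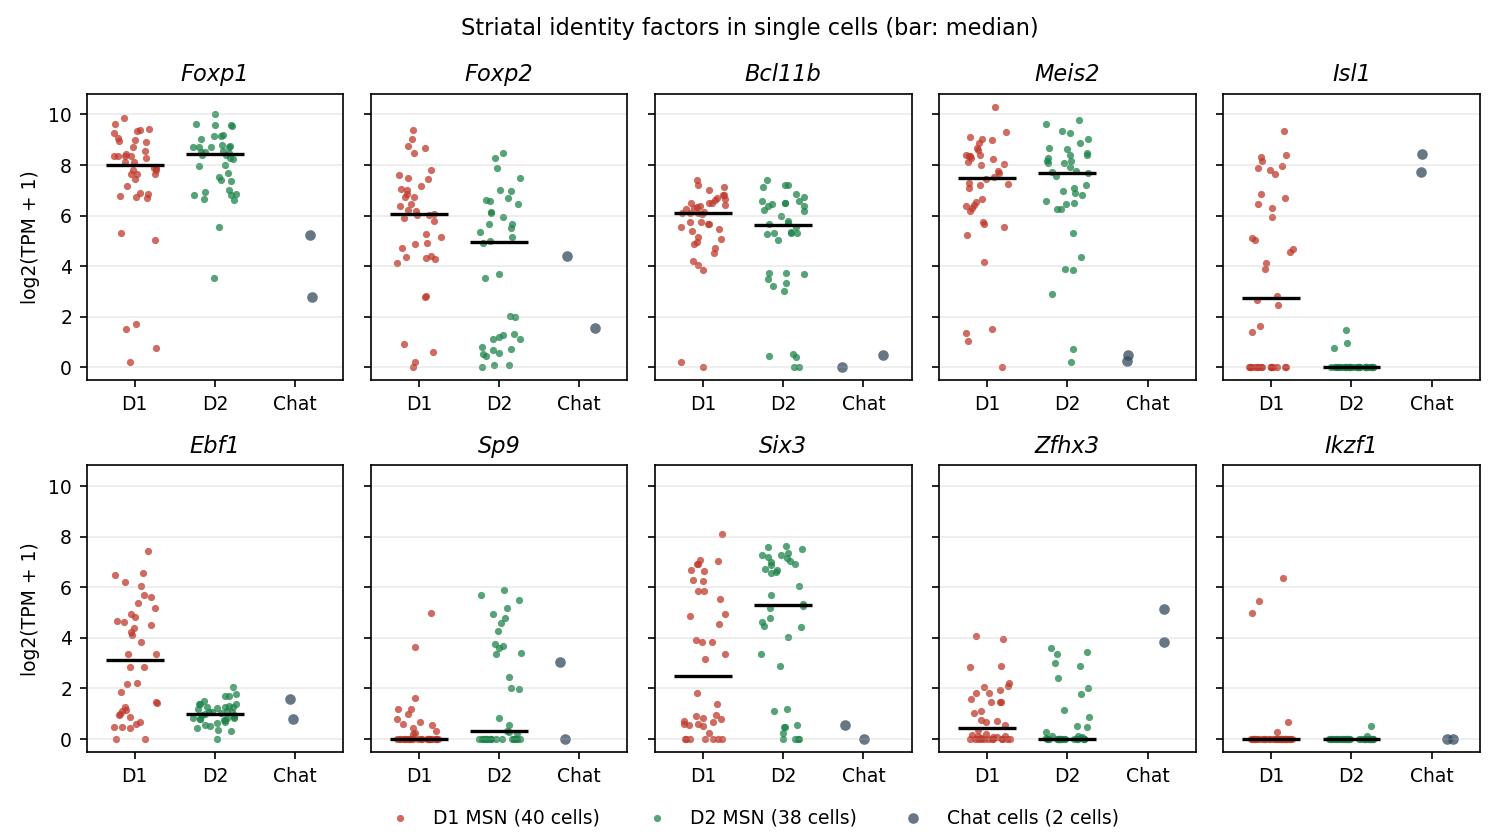
Level of each of the 10 factors in single cells, as log2 of TPM plus 1. Each point is 1 cell (40 D1 MSN, 38 D2 MSN, 2 Chat cells) and the bar is the median. Foxp1, Bcl11b and Meis2 were spread alike over both MSN subtypes, Isl1 and Ebf1 reached their high levels in D1 MSN among the MSN, as did Ikzf1 in 3 cells, and the Chat cells were high in Isl1 and low in Meis2, Bcl11b and Six3.

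Foxp1, a forkhead factor that mostly represses its targets (chromosome 6 of GRCm38, 98925338 to 99522721, as for all positions from the annotation), had the highest mean of the 10 in both subtypes. In D1 MSN its lowest value was 0.166 TPM, its median 256 TPM and its highest 918 TPM, and in D2 MSN 10.5, 344 and 1036 TPM. The groups overlapped over nearly their whole range. The means were 302 ± 231 TPM (SD, 40 cells) and 360 ± 239 TPM (SD, 38 cells), and the log2 fold of D1 over D2 MSN, taken between means plus 1 TPM here and below, was -0.25. Foxp1 exceeded 1 TPM in 38 of 40 D1 MSN and in 38 of 38 D2 MSN. The exceptions were the cells in wells B02 and D04 already named.

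Meis2, a homeodomain factor (chromosome 2, 115863064 to 116065839), came next. From the lowest over the median to the highest cell, D1 MSN were at 0, 177 and 1272 TPM, while D2 MSN were at 0.161, 206 and 885 TPM. The means were 239 ± 239 TPM (SD, 40 cells) and 247 ± 220 TPM (SD, 38 cells), with a log2 fold of -0.05. The sign of this small difference was not the same on the 2 large plates, at 0.14 on FACS051_5 and -0.35 on FACS086_4.

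Bcl11b, a zinc finger factor needed for MSN to mature (chromosome 12, 107910403 to 108003602), was the most even of the abundant factors among D1 MSN. The lowest, median and highest D1 MSN were at 0, 67.0 and 171 TPM, while D2 MSN were at 0, 48.1 and 171 TPM. The highest cells of the subtypes were thus level. The means were 66.7 ± 40.5 TPM (SD, 40 cells) and 56.5 ± 47.4 TPM (SD, 38 cells), with a log2 fold of 0.24. Bcl11b exceeded 1 TPM in 38 of the D1 MSN (95.0%, exact Clopper-Pearson 95% interval 83.1 to 99.4%, counting error only), and in 33 of the D2 MSN (86.8%, interval 71.9 to 95.6%).

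Foxp2, a forkhead factor known for its part in vocal learning and speech (chromosome 6, 14901349 to 15441977), was the only one of these 4 with a log2 fold above 1. Among D1 MSN the lowest, median and highest cells were at 0, 65.1 and 672 TPM, while D2 MSN were at 0, 30.2 and 352 TPM. The ranges overlapped, and 5 D1 MSN were above every D2 MSN. The means of 119 ± 154 TPM (SD, 40 cells) and 58.4 ± 85.1 TPM (SD, 38 cells) gave a log2 fold of 1.02, which was 0.28 on plate FACS051_5 and 1.40 on FACS086_4. Without the highest D1 MSN (672 TPM, well D04 of FACS086_4) it was 0.84. Cells with more than 1 TPM were 36 of the 40 D1 MSN, and 29 of the 38 D2 MSN.

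Isl1, a LIM homeodomain factor (chromosome 13, 116298281 to 116309689), differed most between the subtypes. In D1 MSN its lowest, median and highest values were 0, 5.66 and 654 TPM, and in D2 MSN 0, 0 and 1.79 TPM. Among D1 MSN the values fell apart, with 16 cells listed at 0 and the other 24 all above 1 TPM, of which 19 were above 10 TPM and 10 above 100 TPM. Of the D2 MSN, 35 were listed at 0. The means were 77.7 ± 137 TPM (SD, 40 cells) and 0.0902 ± 0.339 TPM (SD, 38 cells), with a log2 fold of 6.17 that was 5.76 on plate FACS051_5 and 6.50 on FACS086_4. More than 1 TPM was found in 60.0% of the D1 MSN (interval 43.3 to 75.1%), against 2.63% for the D2 MSN (interval 0.0666 to 13.8%). On the large plates, 11 of 18 and 13 of 21 D1 MSN had it. Without cells under 4000 genes the share was 69.7% of D1 MSN and 3.85% of D2 MSN. Within D1 MSN the Pearson correlation of Isl1 with the number of genes found in the cell was 0.33. The part of that number in the values of 0 was not tested. Of the 16 D1 MSN without Isl1, 15 had more than 1 TPM of Drd1 and 15 had more than 1 TPM of Tac1, the substance P gene of D1 MSN. Keeping the 2 Chat cells in the Drd2 group lowered the log2 fold to 2.40.

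Ebf1, a helix-loop-helix factor (chromosome 11, 44617317 to 45008091), was also highest in D1 MSN. D1 MSN, by lowest, median and highest cell, were at 0, 7.77 and 172 TPM, while D2 MSN were at 0, 1.01 and 3.13 TPM. A total of 24 D1 MSN were above every D2 MSN. Unlike Isl1, low values of Ebf1 were common in D2 MSN, where 37 of 38 cells were above 0 and 19 above 1 TPM. The means were 22.8 ± 34.8 TPM (SD, 40 cells) and 1.11 ± 0.660 TPM (SD, 38 cells), with a log2 fold of 3.50. It was 2.61 on plate FACS051_5, where D1 MSN averaged 10.4 TPM, and 3.98 on FACS086_4, where they averaged 34.3 TPM.

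**Figure D2:**
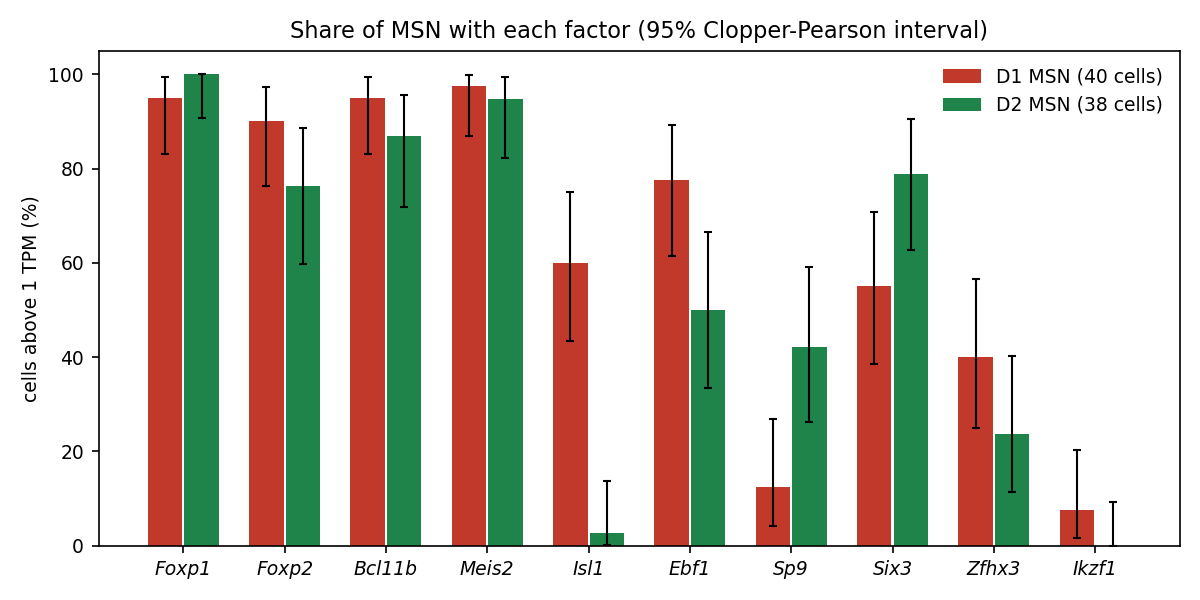
Percent of MSN above 1 TPM for each factor, in 40 D1 MSN and 38 D2 MSN, with exact 95% intervals that cover counting error only. Isl1 was above 1 TPM in 60.0% of D1 MSN and 2.63% of D2 MSN, and Sp9 in 12.5% and 42.1%.

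Sp9, a zinc finger factor of the Sp family (chromosome 2, 73271925 to 73284706), was higher in D2 MSN. At the lowest, the median and the highest cell, D1 MSN were at 0, 0 and 30.4 TPM, while D2 MSN were at 0, 0.236 and 57.7 TPM. Most cells of both subtypes were low, and 11 D2 MSN but 2 D1 MSN were above 10 TPM. The means were 1.27 ± 5.07 TPM (SD, 40 cells) and 9.28 ± 15.6 TPM (SD, 38 cells), with a log2 fold of -2.18. It was -2.25 on plate FACS051_5 and -1.66 on FACS086_4. Sp9 exceeded 1 TPM in 5 of the D1 MSN (12.5%, interval 4.19 to 26.8%), and in 16 of the D2 MSN (42.1%, interval 26.3 to 59.2%). The highest D1 MSN was the cell in well C06, without which the log2 fold was -2.76.

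Six3, a homeodomain factor known from forebrain and eye development (chromosome 17, 85613608 to 85629302), was abundant in both subtypes and higher on average in D2 MSN. Values of the lowest, median and highest D1 MSN were at 0, 5.19 and 278 TPM, while D2 MSN were at 0, 38.6 and 198 TPM. A D1 MSN was the highest of all cells, and the groups overlapped fully. The means were 36.1 ± 58.3 TPM (SD, 40 cells) and 68.0 ± 66.7 TPM (SD, 38 cells), with a log2 fold of -0.89, -0.81 on plate FACS051_5 and -1.04 on FACS086_4. That highest D1 MSN was again the cell in well C06, and without it the log2 fold was -1.16. Six3 exceeded 1 TPM in 22 of the D1 MSN (55.0%, interval 38.5 to 70.7%), against 30 of the D2 MSN (78.9%, interval 62.7 to 90.4%).

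Zfhx3, a very large factor with zinc fingers and homeodomains (chromosome 8, 107942644 to 108961630), was low in MSN. By lowest, median and highest cell, D1 MSN were at 0, 0.374 and 16.03 TPM, while D2 MSN were at 0, 0 and 11.3 TPM. The groups overlapped, and the log2 fold of 0.18 was -0.41 on plate FACS051_5 and 1.02 on FACS086_4. Without the highest D1 MSN the log2 fold was -0.01.

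Ikzf1 (Ikaros), a zinc finger factor of lymphocytes that is also known from enkephalin neurons of the developing striatum (chromosome 11, 11685003 to 11772926), was above 1 TPM in 3 cells, all D1 MSN. They held 82.7 TPM (plate FACS051_5, well A09), 30.9 TPM (FACS086_4, well A07) and 42.5 TPM (FACS086_4, well D08). All other MSN were below 1 TPM, and the highest D2 MSN was at 0.436 TPM. The log2 fold of 2.28 therefore rests on 3 cells, and was 1.52 without the highest. In the 3 cells the microglia markers Cx3cr1 and Csf1r were at 0 to 2.28 TPM and at 0, the sum of 5 D1 MSN markers was at least 1246 TPM, and that of the oligodendrocyte markers was between 0.169 and 188 TPM. Of the endothelial markers, Pecam1 was at 28.6, 12.02 and 149.9 TPM and Flt1 at 0, 1.67 and 0 TPM. Of the 3 the cell of well D08 was highest in Pecam1 and in the oligodendrocyte markers. Their part in the level of Ikzf1 was not tested.

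All 10 factors averaged at least 1 TPM over the 78 MSN, the limit used for counting, although Isl1 and Ikzf1 did so only through D1 MSN. A log2 fold above 1 was found for 4 of them (Isl1, Ebf1, Ikzf1, Foxp2) and for 21.1% of all 15671 genes that passed the same limit. A log2 fold below -1 was found for 1 of them (Sp9) and for 14.8% of these genes. The median log2 fold was 0.21 over the factors and 0.09 over all these genes. By size, 99.9% of all listed genes had a lower log2 fold than Isl1, 99.0% a lower one than Ebf1 and 2.80% a lower one than Sp9.

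**Figure D3:**
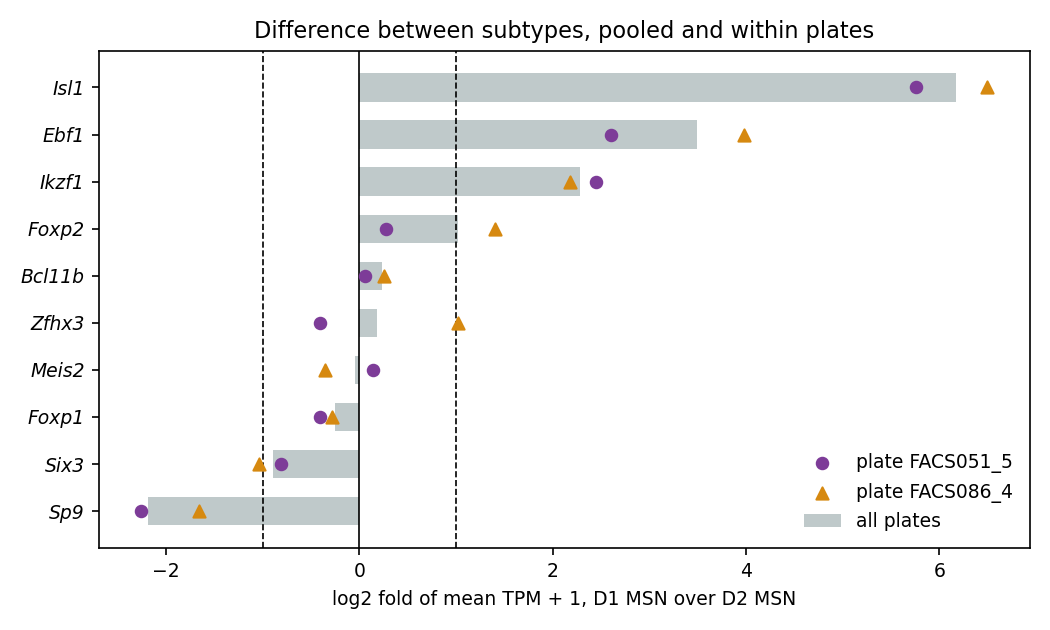
Log2 fold of mean TPM plus 1, D1 MSN over D2 MSN, over all plates (bars) and within the 2 large plates (points). Isl1, Ebf1 and Ikzf1 lay above 1 and Sp9 below -1 on both plates, Foxp2 lay above 1 on FACS086_4 only, and Meis2 and Zfhx3 had opposite signs on the plates.

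In order of mean level, D1 MSN ran from Foxp1 over Meis2, Foxp2, Isl1, Bcl11b, Six3, Ebf1, Ikzf1 and Zfhx3 to Sp9, and D2 MSN from Foxp1 over Meis2, Six3, Foxp2, Bcl11b, Sp9, Zfhx3, Ebf1 and Isl1 to Ikzf1. Neighbours in these orders differed by less than the larger of their SDs over cells, except Ebf1 and Isl1 in D2 MSN, whose means differed by 1.02 TPM. The order of means also hid how the cells were made up. Isl1 averaged more than Bcl11b in D1 MSN, yet Bcl11b was the higher of the pair in 28 of 40 cells and Isl1 in 11. Foxp1 exceeded Meis2 in 25 of 40 D1 MSN and in 27 of 38 D2 MSN. The mean of Foxp1 was above that of 98.9% of listed genes in the Drd1 cells, and of 99.1% in D2 MSN.

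The factors were then followed in the same cells. Foxp1, Foxp2, Bcl11b and Meis2 were found together, each with more than 1 TPM, in 35 of 40 D1 MSN but 27 of 38 D2 MSN, and Foxp2 was the gene most often missing. The MSN that lacked all 4 was the D1 MSN with 648 genes. A D1 MSN had between 1 and 9 of the 10 factors above 1 TPM, with a median of 6, and a D2 MSN had between 1 and 7, also with a median of 6. Across cells, the level of Foxp1 had a Pearson correlation with the number of genes found in the cell of 0.51 (78 MSN), Bcl11b 0.53, Foxp2 0.49 and Meis2 0.43. For Ebf1 it was 0.37, for Isl1 0.30, for Zfhx3 0.26, for Six3 0.25, for Sp9 -0.01 and for Ikzf1 -0.02. The part of this number in the missing factors was not tested.

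Isl1 and Ebf1 were found together in 20 of 40 D1 MSN, Isl1 alone in 4, Ebf1 alone in 11 and neither in 5. The cell with the highest Isl1 (654 TPM, well C01 of FACS086_4) was among those with less than 1 TPM of Ebf1. Their levels had a correlation of 0.23 within D1 MSN (40 cells), and the value of 0.47 over 78 MSN includes the difference between the subtypes. Isl1 and Sp9 were found together in 3 D1 MSN and in 0 D2 MSN, and in these cells Sp9 was at most 2.04 TPM. The 2 D1 MSN above 10 TPM of Sp9, among them the cell in well C06 of FACS051_5, were listed at 0 for Isl1. So were 16 of all 40 D1 MSN. Sp9 and Six3 were found together in 13 D2 MSN, Six3 alone in 17, Sp9 alone in 3 and neither in 5.

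**Figure D4:**
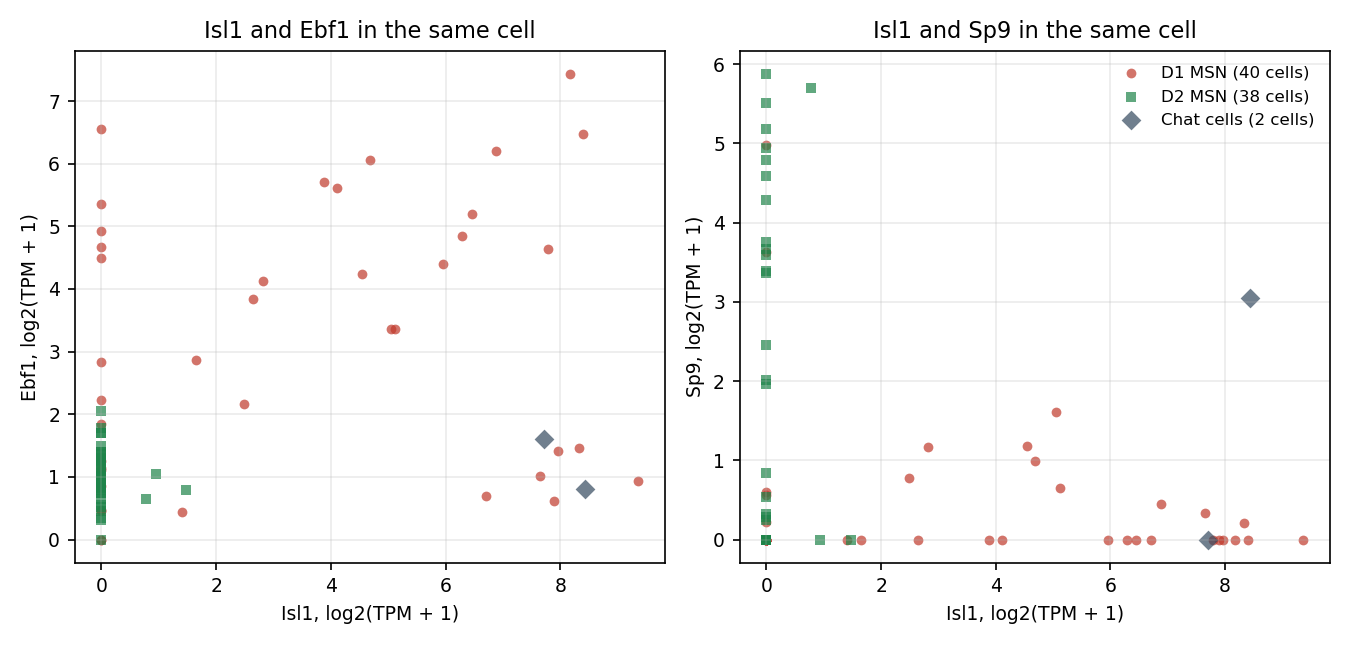
Levels of Isl1 and Ebf1 (left) and of Isl1 and Sp9 (right) in the same cell, as log2 of TPM plus 1, for 40 D1 MSN, 38 D2 MSN and 2 Chat cells. D1 MSN were found with both, either or neither of Isl1 and Ebf1. The MSN with much Sp9 lay at or near 0 of Isl1, at which 16 D1 MSN and 35 D2 MSN were listed.

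The Drd1 cell in well C06 of plate FACS051_5 held Drd1 and Penk together, as given above. It had 278 TPM of Six3 and 30.4 TPM of Sp9, the highest of any D1 MSN for both, while Isl1 and Ebf1 were listed at 0. Foxp2 was at 430 TPM, Meis2 at 77.4 TPM, Bcl11b at 15.5 TPM and Foxp1 at only 1.87 TPM. Its fluorescence was that of a Drd1 cell, at 1649 units in the TdTomato channel (D1 MSN 1001 to 4451) and 51 units in the EGFP channel (D1 MSN 13 to 213, D2 MSN 502 to 1765). It had 2871 genes above 1 TPM, fewer than most D1 MSN. Whether it held RNA of more than 1 cell was not tested.

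The Drd1 cell of well D04 on FACS051_5, with its astrocyte markers, had low sums of MSN markers (360 TPM, where the median D1 MSN had 5646 TPM) and of D1 MSN markers (283 TPM). Foxp1 was at 0.166 TPM and Bcl11b, Isl1 and Ebf1 were listed at 0, while Zfhx3 at 14.5 TPM and Six3 at 13.1 TPM were present. Its 213 units of EGFP and 1001 units of TdTomato were the highest and the lowest among D1 MSN. Leaving it out changed no sign of a log2 fold and neither count of folds past 1, but took that of Zfhx3 from 0.18 to 0.01.

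The Chat cells had a different set. Isl1 was at 208 TPM (well A08) and 343 TPM (well B02), above all 38 D2 MSN, and 1 of 40 D1 MSN was above both. Zfhx3 was at 34.6 and 13.3 TPM, also above all 38 D2 MSN, and no D1 MSN was above both. Meis2 was at 0.396 and 0.175 TPM, Bcl11b at 0.399 and 0 TPM, and Six3 at 0.486 and 0 TPM, below 37, 34 and 30 of the 38 D2 MSN. The forkhead factors were lower than in most MSN but above 1 TPM in both cells, with Foxp1 at 36.2 and 5.86 TPM and Foxp2 at 20.1 and 1.92 TPM. Ebf1 was at 2.04 and 0.752 TPM, Sp9 at 0 and 7.31 TPM, and Ikzf1 was listed at 0 in both.

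As log2 folds of the mean of the Chat cells over D2 MSN, Isl1 was at 7.99 and Zfhx3 at 3.32, while Meis2 was at -7.59, Six3 at -5.79, Bcl11b at -5.58, Foxp1 at -4.03, Foxp2 at -2.30 and Sp9 at -1.14. Of the 9 factors that averaged at least 1 TPM over the Drd2 group, 2 were thus above 1, where 26.0% of 14717 genes were, and 6 were below -1, where 34.8% of genes were. Isl1 passed that limit only through the Chat cells, so that its place among the 2 follows from the limit. Sp9 differed between the Chat cells themselves, and its fold went to -0.50 with 10 TPM added to the means in place of 1. With 2 cells, both on plate FACS051_5, these values describe these cells. Against the D2 MSN of that plate alone, all signs were the same. The Chat cells had more genes above 1 TPM than any MSN, and their sums of 6 MSN markers were 70.4 and 91.9 TPM, where the median D2 MSN had 6227 TPM.

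**Figure D5:**
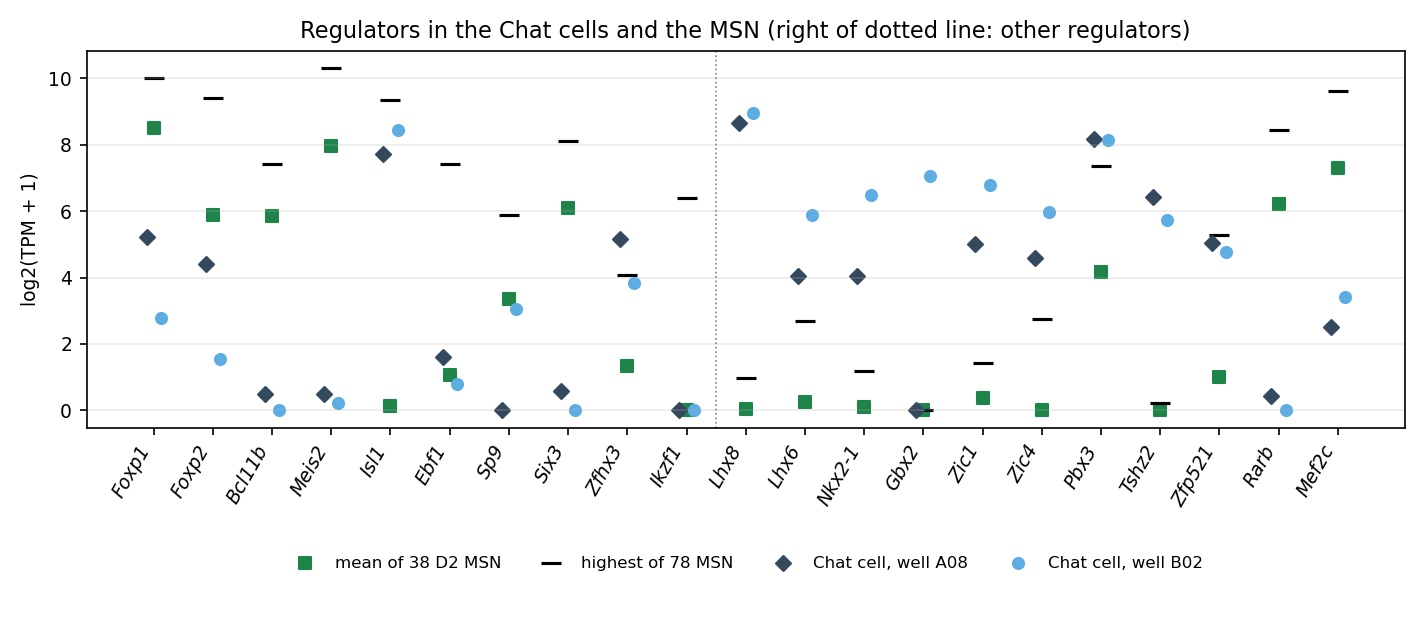
Levels in the Chat cells (wells A08 and B02), the mean of 38 D2 MSN and the highest of 78 MSN, as log2 of TPM plus 1, for the 10 factors (left) and 11 other regulators (right) picked after their values were seen. Both Chat cells lay above every MSN for Lhx8, Lhx6, Nkx2-1, Zic1, Zic4, Pbx3 and Tshz2. They lay above all D2 MSN for Isl1 and Zfhx3, and near 0 for Meis2, Bcl11b, Six3 and Rarb.

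Other genes of the same families were compared from a list of 28 paralogs, of which 22 were listed and 11 averaged at least 1 TPM over the MSN. Of these 11, 3 had a log2 fold above 1 and 3 below -1, where 21.1% and 14.8% of all genes were. Ikzf3 passed only through D2 MSN. The paralog with the highest mean was Bcl11a, the sister gene of Bcl11b, at 36.01 TPM (D1 MSN) against 75.3 TPM (D2 MSN). Its log2 fold was -1.04, -0.54 on plate FACS051_5 and -1.33 on FACS086_4, so that it leaned to D2 MSN where Bcl11b did not, and it was listed at 0 in both Chat cells. Meis3 averaged 9.34 TPM (D1 MSN) against 22.2 TPM (D2 MSN), and stood at 159 and 178 TPM in the Chat cells, where Meis2 was below 1 TPM. Yet Meis3 was above 1 TPM in 13 D1 MSN and in 9 D2 MSN, and its highest MSN was at 265 TPM. Ikzf3 averaged 0.952 and 18.1 TPM, but was carried by few cells, as 2 D1 MSN and 2 D2 MSN exceeded 1 TPM. The paralogs above 1 were Sp1 at 1.72, Sp4 at 1.34 and Ikzf5 at 1.13, the latter with opposite signs on the large plates. They too were carried by few cells, with 7, 6 and 6 D1 MSN above 1 TPM. Their highest MSN were at 190, 68.0 and 241 TPM, where D1 MSN averaged 7.79, 5.29 and 12.2 TPM. The other Foxp genes, Foxp3 and Foxp4, averaged below 0.1 TPM in both subtypes.

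Of 22 other regulators of striatal and subpallial neurons, 18 were listed and 16 averaged at least 1 TPM. The highest mean was that of Mef2c, an activity-regulated factor, at 150 TPM (D1 MSN) against 157 TPM (D2 MSN). A log2 fold below -1 was found for Tcf4 (-1.23), a helix-loop-helix factor. It was -2.00 on plate FACS051_5 and -0.92 on FACS086_4. The highest MSN for Tcf4 was at 469 TPM, where D2 MSN averaged 29.8 TPM. Rarb, a retinoic acid receptor of striatal neurons, averaged 78.2 TPM (D1 MSN) against 73.8 TPM (D2 MSN) and was at 0.365 and 0 TPM in the Chat cells. In the Chat cells 3 of these genes were above 1 over D2 MSN and 10 were below -1, of the 17 that passed, where 26.0% and 34.8% of all genes were. Tshz2 and Zfp521 passed only through the Chat cells. Among the 3 were Pbx3 at 289 and 284 TPM and Tshz2 at 85.1 and 52.0 TPM, and Tshz2 was at most 0.169 TPM in every MSN.

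A list of 8 interneuron regulators was at low means in MSN, with 0 of 8 averaging 1 TPM. Of the 8, 5 were in both Chat cells above every MSN. Lhx8, a LIM homeodomain factor of cholinergic neurons, stood at 399 and 494 TPM, and Lhx6, its relative, at 15.6 and 57.8 TPM. Nkx2-1, a homeodomain factor of the ventral forebrain from which these interneurons come, was at 15.5 and 87.7 TPM, Zic1 at 31.03 and 109 TPM, and Zic4 at 23.3 and 61.7 TPM. For Gbx2 the cell of well B02 held 131 TPM, and that of well A08 was listed at 0. Of all 25160 genes, 273 (1.09%) had both Chat cells above every MSN, and 0 of the 10 factors did. Of 6 cortical regulators 5 were listed, and those with a mean of at least 1 TPM, Tbr1 and Fezf2, were carried by few cells, Fezf2 by 1 D1 MSN at 161 TPM.

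For each factor, the genes whose level was most alike over the 78 MSN were sought among 9192 others found in at least 20% of MSN, by Pearson correlation of log2 of TPM plus 1. These cells differ in how many genes were found, which all such values share. The values given are also the highest of 9192 for each factor. How high unrelated genes would reach by such a choice was not tested. The 3 nearest genes of each factor follow. For Meis2 they were Snap25, a protein of synaptic vesicle release, at 0.73, Syt1, its calcium sensor, at 0.67 and Ywhae at 0.66. Snap25 also led for Bcl11b at 0.66, before App at 0.64 and Sptbn1 at 0.63. Foxp1 was nearest to Elmod1 at 0.70, the calcineurin gene Ppp3ca at 0.67 and Ndrg4 at 0.66. Within D1 MSN these were at 0.80, 0.78 and 0.86, and within D2 MSN at 0.42, 0.45 and 0.32. Foxp2 was nearest to Gm23237 at 0.51, Gm36070 at 0.51 and Fam49a at 0.50. Nearest to Isl1 were Tac1 at 0.63 (0.49 within D1 MSN), Trappc10 at 0.59 and Drd1 at 0.57, and to Ebf1 Drd1 at 0.62 (0.34 within D1 MSN), C530043A13Rik at 0.61 and March4 at 0.59. The genes named for Isl1 and Ebf1 all differ between the subtypes themselves, with log2 folds from 1.38 (Trappc10) to 7.07 (Drd1). Sp9 was nearest to Gnas, a G protein subunit, at 0.46 (0.30 within D2 MSN), Penk at 0.45 (0.16 within D2 MSN) and Grhpr at 0.44. These were at 0.60, 0.55 and 0.33 on plate FACS051_5 and at 0.12, 0.30 and 0.52 on FACS086_4. Six3 was nearest to Osbpl8 at 0.55, Cd47 at 0.51 and Gnas at 0.46. Gnas and Penk differ between the subtypes too, at log2 folds of -2.86 and -6.69. For Zfhx3 the nearest genes were Cdc26 at 0.51, Lhfpl3 at 0.45 and Dram2 at 0.45. They were at 0.60, 0.37 and 0.51 on plate FACS051_5 and at 0.21, 0.62 and 0.36 on FACS086_4. For Ikzf1 the nearest were Wdr73 at 0.56, RP23-248P8.1 at 0.53 and Ercc5 at 0.52. Ikzf1 itself was above 1 TPM in 3 of 78 MSN, short of the 20% limit, so its values rest largely on 3 cells. Within D2 MSN its nearest genes were at -0.07, -0.10 and 0.34. Lhfpl3, Wdr73 and Ercc5 had log2 folds of -1.08, 2.13 and 1.58.

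In GENCODE M21, exons of some factors share bases with other genes. Reads there cannot be assigned on the same strand, nor on opposite strands where strand was not used. Whether strand was used is not stated in the sources used here. Bases shared with the opposite strand were 5.35% of the exon bases of Sp9 (with Cir1). For Six3 they were 3.08% and 1.95% (with Gm28528 and Six3os1). Foxp1 shared 2.18% with Gm20696 on the same strand. Cir1 averaged 16.3 TPM (D1 MSN) against 10.4 TPM (D2 MSN), and Six3os1 averaged 11.9 and 6.0 TPM. Gm28528 averaged 7.01 and 1.16 TPM, and Gm20696 averaged 17.6 and 10.8 TPM. The part of shared reads in the levels of the factors was not tested.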

How the data were processed

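Single neurons sorted from the dorsomedial striatum were sequenced as 1 library each. The deposited values are TPM made by the authors. Their processing notes and methods name bcl2fastq 2.18, STAR 2.5.0 on mm10/GRCm38 with reporter sequences added, and featureCounts 1.5.1. How TPM were made is not given in the sources used here. Values above 0 went down to 1.75e-09 and cells summed to between 506588 and 958040, so the depth of each cell cannot be read from them, and no cell was thinned to a common depth. A total of 0 columns were left unmapped and 0 were duplicates.

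From these TPM, means, log2 folds of (mean + 1 TPM) and counts of cells above 1 TPM were computed with pandas 2.3.3 and numpy 2.4.6 under Python 3.11.15, exact intervals with scipy 1.17.1 and figures with matplotlib 3.10.9. The labels tie no cell to an animal or a culture, so each group is 1 sample, and neither p-values nor a fit were made. The study's text counts a few cells as without usable data but does not name them, so all 80 were kept. The fold step was checked on these cells grouped at random with some genes raised by a known amount, which checks the arithmetic only. The members, lists, the Chat limit of 100 TPM and the markers were chosen with earlier results of these data known. Named are the 10 members, listed genes past a log2 fold of 1 or highest in their list, and the 3 genes most correlated with each member. Tshz2, Rarb, Foxp3, Foxp4, Cir1, Six3os1 and the interneuron regulators named were picked after their values were seen. Positions are from GENCODE M21 and promoters from RefSeq. A gene of the list of striatal and subpallial regulators is not reported here.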

Additional observations from a re-analysis of the deposited data

How the results depend on the processing

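The number of factors with a log2 fold above 1 was 4. It was 3 under 8 alternatives (mean log2 values, the mean of the folds within the large plates, without plate FACS086_4 or FACS086_9, without cells under 2000 or under 4000 genes, without the cell in well C06 of FACS051_5, and over genes averaging at least 10 TPM), 5 without plate FACS051_5 and 2 with a pseudocount of 10 TPM. The number below -1 was 1. It was 0 with a pseudocount of 10 TPM or with only genes averaging at least 10 TPM, 2 when mean log2 values were compared, without plate FACS051_5, without cells under 4000 genes or without the cell in well C06 of FACS051_5 (an alternative chosen after seeing the data, as were leaving out each cell in turn or the Drd2 cells in wells A12 and C05), and 3 after rescaling to the upper quartile. Of the folds recomputed for the 10 factors, 135 moved by no more than the SD between the large plates, 35 moved further and no fold past 1 reversed. Meis2 and Zfhx3, both within 1, were positive in 4 and 13 of 17 alternatives. Isl1, Ebf1, Foxp2, Bcl11b and Ikzf1 stayed positive, and Foxp1, Sp9 and Six3 negative. Isl1 ranged from 2.40 to 8.68, Ebf1 from 1.56 to 4.24, Sp9 from -2.78 to -0.78, Foxp2 from 0.48 to 1.71, Six3 from -1.52 to -0.76 and Ikzf1 from 0.43 to 5.14. The value of Foxp1 went to -1.66 under the upper quartile, where the Drd2 cell in well A12 of FACS086_9 had a quartile of 0.662 TPM against a median of 131 TPM. Over genes averaging at least 10 TPM the median log2 fold was 0.01, 0.16 when mean log2 values were compared and -0.12 under the upper quartile. No paired analysis was possible because the replicate numbers only follow the accessions and match no cell of a group with one of the other, and no result comes from a test.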

Other observations

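In MSN the factors Foxp1, Foxp2, Bcl11b and Meis2 were each missing (at most 1 TPM) in 2, 13, 7 and 3 of 78 cells. The Drd2 cells in well A12 of plate FACS086_9 (where D1 MSN markers, at 1218 TPM, exceeded D2 MSN markers, at 527 TPM) and in well A11 of plate FACS051_5 held Foxp1 (96.8 and 182 TPM) with every other factor at or below 1 TPM, and had 1215 and 2183 genes above 1 TPM. They were the only cells of the 38 with 1 of the 10 factors above 1 TPM.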
